A study of Mus musculus with 4 samples.

Results

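Forkhead transcription factors are DNA-binding proteins that share a winged-helix domain. The family was followed here through the 82 probe sets whose array annotation names a single gene of the Foxa to Foxs classes, out of 45037 probe sets tested. They measured 37 genes out of 18193, of which 21 had several probe sets and 16 had 1.

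Forkhead factors fall into classes with separate roles. FoxA proteins open closed chromatin in endoderm and liver, FoxC proteins pattern mesoderm, vessels and skeleton, and FoxF proteins are made in the mesenchyme around gut, liver and lung, where hedgehog signals from the epithelium switch them on. Foxc1 is also known as a factor of the bone marrow stromal cells that make Cxcl12 and stem cell factor and keep blood stem cells. FoxO proteins act downstream of insulin signalling, which holds them outside the nucleus, and FoxM1 drives genes of mitosis.

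Total RNA of mouse stromal lines was hybridised to 4 expression arrays, 2 per line, labelled as biological replicates of each line. OP9M2 is a clone derived from OP9 stroma, labelled mesenchymal stem cells, which sustains human blood progenitors in co-culture. BFC012, the line that does not, is labelled as fibroblasts of fetal liver. All cultures had received 2000 rad of radiation and were seeded with 25000 cells per square centimetre, 48 hours ahead of RNA extraction. OP9M2 grew in 20% serum and BFC012 in 10%, and effects of serum and of the line cannot be told apart. The labels do not say how the replicate cultures were separated, so the p-values measure the spread between these arrays.

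Values are given as log2 values, on which a step of 1 is a 2-fold change. A background level of 6.09 was set by 81 probe sets of receptors of smell and related senses, as their 95th percentile. The OP9M2 arrays were less alike than the BFC012 arrays, with 2842 against 291 probe sets at least 1 log2 unit apart. OP9M2 replicate 2 also stood apart in its added poly-A control RNAs, with a median of 3.66 against 6.12 to 6.97 on the other arrays. Of 16 mesenchymal stroma markers, 15 were above background on at least 1 array, and Thy1 was not. The collagen chain Col1a2, near background in BFC012 (6.18 and 6.07) and at 14.25 and 14.14 in OP9M2, and the calcium-binding protein S100a4 (2.23 ± 0.13, adjusted p = 0.00415) were higher in OP9M2, and the TGF-beta co-receptor Eng was lower (-1.88 ± 0.20, adjusted p = 0.0175). The other 13 were not called by limma, among them the PDGF receptors Pdgfra (3.37 ± 0.56, adjusted p = 0.0513) and Pdgfrb (2.18 ± 0.51, adjusted p = 0.109). Also not called were Nt5e (-1.68, adjusted p = 0.176) and the collagens Col1a1 (-0.63) and Col3a1 (0.23). Of the 16 differences 9 were above 0 and 7 below, and the list's median difference was 0.12. Over all genes 2.36% were called higher and 3.56% lower. The list held 4 higher and 1 lower without OP9M2 replicate 1, and 4 higher and 2 lower without OP9M2 replicate 2. Above background on at least 1 array were 4 of 11 blood cell, 4 of 10 endothelial and 3 of 8 hepatocyte markers, of which none was called by limma (0, 1 and 1 at an unadjusted p under 0.05). Csf1r and Laptm5 of blood cells, Kdr and Flt1 of endothelium and Ttr, Apoa2 and Hnf4a of hepatocytes were above it on all 4 arrays, with the widest difference in Flt1 (-1.16, adjusted p = 0.0583). Ptprc, Pecam1, Cdh5, Alb and Afp were not above background on any array.

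The lines differed in the levels of FoxA, FoxC and FoxF genes. Foxc2, Foxa1 and Foxc1 were higher in OP9M2, whereas Foxa2, Foxf1 and Foxf2 were lower. These 6 of 37 genes (16.2%) passed the test, against 5.91% of all genes. The share higher in OP9M2 over all genes was 2.36% and the share lower was 3.56%. Counted by probe set, 4 of the 82 were higher, where the share over all probe sets was 1.80%, and 5 were lower, where it was 2.66%. Together 9 of the 82 were called, against 4.46% of all probe sets. In 24 of the 37 genes (64.9%) the arrays of the lines did not overlap, a share of 53.2% over all genes. The lines lay 1 log2 unit or more apart in 10 forkhead genes (27.0%), compared with 11.2% of all genes. The median difference was 0.08 over the forkhead genes and 0.03 over all genes.

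**Figure D1:**
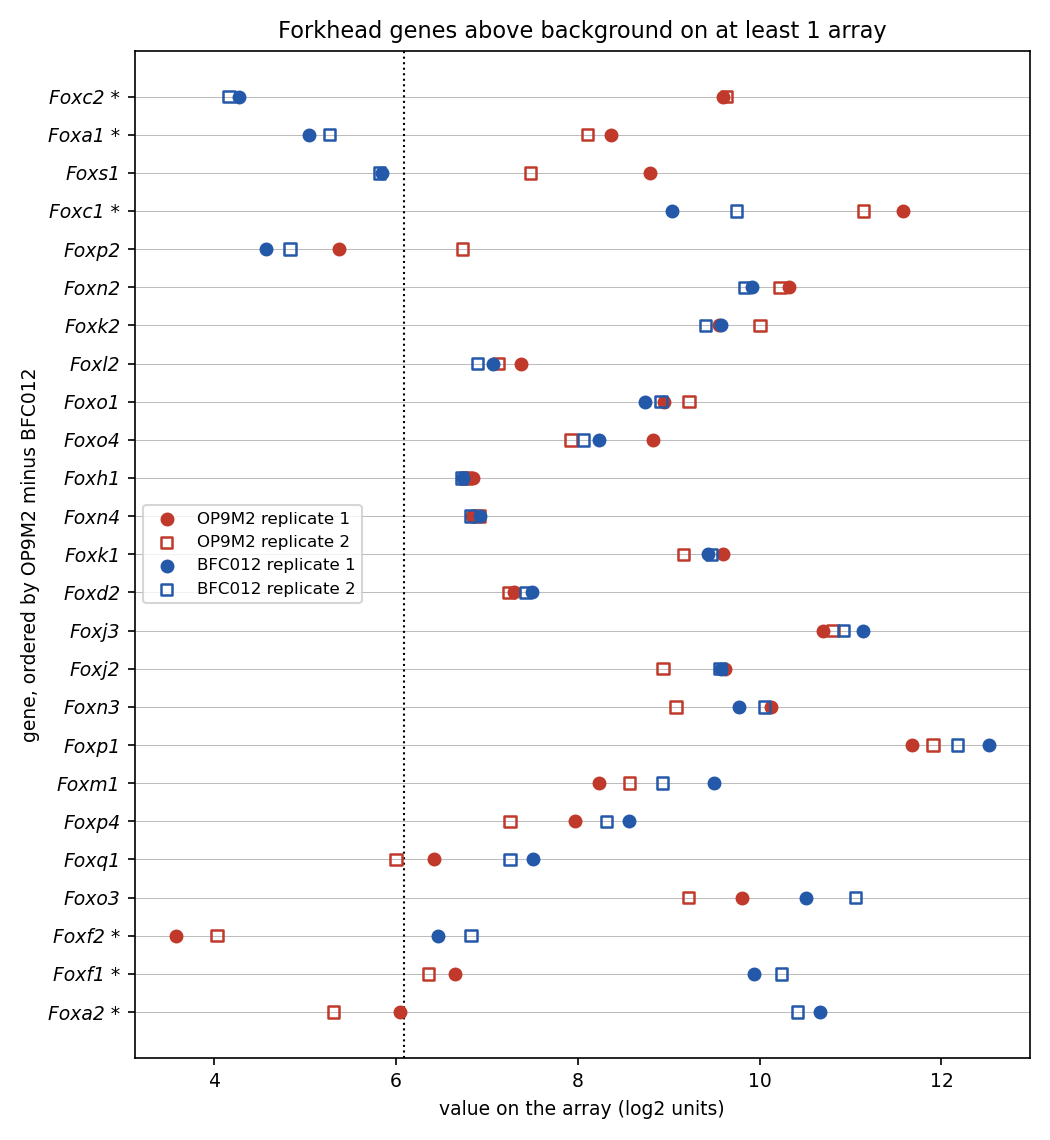
Log2 values (x axis) of the 25 forkhead genes above background on at least 1 array, ordered by OP9M2 minus BFC012; each point is 1 array, red for OP9M2 and blue for BFC012, filled for replicate 1 and open for replicate 2. A dotted line marks 6.09, the background level, asterisks mark the 6 called genes, and levels of different genes cannot be compared because they rest on different probes; Foxc2 and Foxa2 show the widest separation of the lines, in opposite directions.

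Differences are OP9M2 minus BFC012 ± SE with 2 arrays per line, tested with limma and Benjamini-Hochberg adjustment over all probe sets. Calls needed both an adjusted p under 0.05 and a minimum difference of 1 log2 unit. In a fit without 1 array, the spread within lines comes from the 2 arrays of the other line alone. The BFC012 arrays were more alike, so calls made without an OP9M2 array do not reflect the spread of OP9M2. With either BFC012 array left out, no probe set of any gene was called, and 9 (without replicate 1) and 10 (without replicate 2) forkhead genes had an unadjusted p under 0.05, where the shares over all genes were 12.1% and 12.4%. In the fit of all 4 arrays it was 16 forkhead genes (43.2%), against 23.3% of all genes. With OP9M2 replicate 1 left out 10 forkhead genes were called, and with OP9M2 replicate 2 left out 7 were. Those fits called more genes throughout, with 3.78% of all genes higher and 5.41% lower without replicate 1 and 6.47% and 6.26% without replicate 2.

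Foxc2 showed the largest difference of the family. This gene of lymphatic vessels and mesoderm had log2 values of 9.60 and 9.64 on the OP9M2 arrays and of 4.27 and 4.17 on the BFC012 arrays. The OP9M2 replicates were nearly equal, and both BFC012 arrays lay below background. The difference was 5.40 ± 0.13 (adjusted p = 0.00105), and since BFC012 was not above background the level in OP9M2 was at least 11.5-fold higher. In RNA from whole cultures, fewer cells that express a gene and less RNA per cell cannot be told apart.

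Foxc1, its closest relative, was measured clearly in both lines. Its brighter probe set read 11.58 and 11.15 in OP9M2 and 9.04 and 9.75 in BFC012. The lines did not overlap, although the BFC012 replicates lay 0.71 apart. OP9M2 was 3.90-fold higher, with a difference of 1.97 ± 0.30 (adjusted p = 0.0448). The second probe set read 10.91 and 10.42 in OP9M2 and 8.04 and 8.73 in BFC012, a difference of 2.28 ± 0.31 (adjusted p = 0.0322). The call of the brighter probe set was lost with each array centred on its median (adjusted p = 0.0505) and without OP9M2 replicate 1 (1.75, adjusted p = 0.0567). Foxc2 was thus above background in OP9M2 alone, and Foxc1 in both lines.

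Foxf1 went the opposite way. This mesenchymal target of hedgehog signals was at 6.65 and 6.36 in OP9M2 against 9.94 and 10.24 in BFC012 by its brighter probe set. Both OP9M2 arrays were just above background and both BFC012 arrays far above it. OP9M2 was 12.0-fold lower, with a difference of -3.58 ± 0.19 (adjusted p = 0.00331). The other probe set was dimmer, at 6.10 and 6.16 in OP9M2 and 7.11 and 7.39 in BFC012, and its difference was smaller at -1.13 ± 0.16 (adjusted p = 0.0362). Both probe sets were called lower, but the size depended on the probe set.

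Foxf2, the other FoxF gene, was lower in OP9M2 as well. It read 3.58 and 4.04 in OP9M2 and 6.47 and 6.83 in BFC012. OP9M2 was below background on both arrays, while BFC012 was above it by less than 1 log2 unit. The difference was -2.84 ± 0.23 (adjusted p = 0.00921), which as a bound over background is at least 1.47-fold. A second Foxf2 probe set was not above background on any array, at 3.73 and 4.12 in OP9M2 and 4.07 and 3.85 in BFC012, and differed by -0.03.

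Most markers of mesothelium, which covers internal organs such as the liver, were lower in OP9M2, as the FoxF genes were. Of 9 measured markers 6 were called lower in OP9M2 (Upk3b, Upk1b, Wt1, Lrrn4, Gpm6a and Bnc1), where 3.56% of all genes were. The list averaged 5.41 and 5.55 on the OP9M2 arrays and 9.53 and 9.82 on the BFC012 arrays. Of these 9 markers, 3 (Upk1b, Msln and Krt19) were above background on both OP9M2 arrays and 8 on both BFC012 arrays, and Muc16 was not above it on any. Msln, Krt19 and Muc16 were not called by limma, with Krt19 at -1.40 ± 0.68 (adjusted p = 0.373), and 1 of the 9 had a difference above 0. The part of these 9 markers in the forkhead differences was not tested.

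FoxF and FoxC genes lie side by side in the mouse genome, on chromosome 8 and again on chromosome 13. On chromosome 8 the order in the GRCm38.p6 annotation is the noncoding transcript Fendrr, then Foxf1, Mthfsd, Foxc2 and Foxl1. On chromosome 13 it is Foxq1, Foxf2 and Foxc1. In both places the FoxF gene was lower in OP9M2 and the FoxC gene was higher. Of the other 18 measured genes around both clusters none was called by limma, and 7 had an unadjusted p under 0.05, where 23.3% of all genes did. The 12 of them that had been listed as neighbours held 4 of these 7, and without OP9M2 replicate 2 Dusp22 was called higher and Fendrr lower among the 12.

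**Figure D2:**
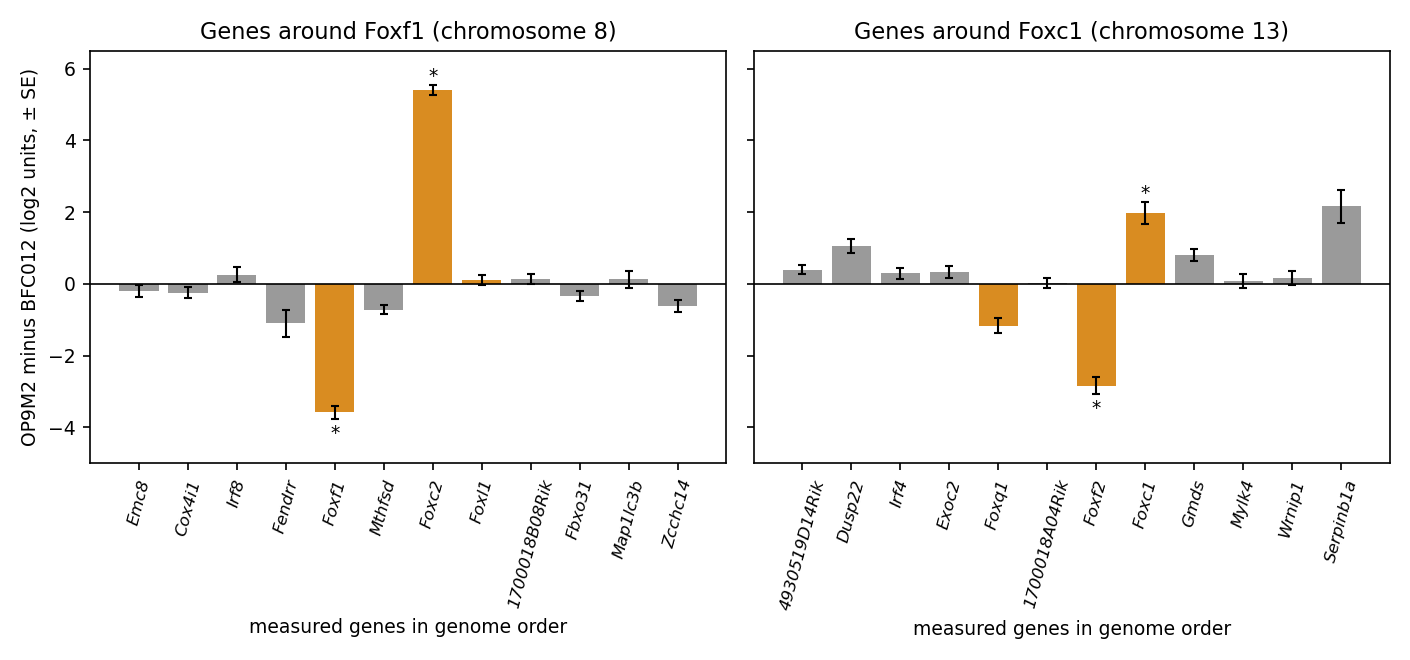
OP9M2 minus BFC012 in log2 units (y axis; bars start at 0, error bars are SE, 2 arrays per line) for the measured genes around both forkhead clusters, in genome order and not to scale. Forkhead genes are orange and others grey, and asterisks mark called genes; in each cluster a FoxF gene points down and a FoxC gene points up, and no grey bar is called, while values below background enter the bars as measured.

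Mthfsd, between Foxf1 and Foxc2, was above background on every array and differed by -0.72 ± 0.13 (adjusted p = 0.0610). Fendrr, transcribed away from Foxf1 on the other strand, was not above background on any array, at 4.37 and 5.39 in OP9M2 and 5.87 and 6.09 in BFC012. Foxl1, a gene of gut and liver mesenchyme, was not above background on any array either. On chromosome 13, Gmds beside Foxc1 differed by 0.80 ± 0.17 (adjusted p = 0.0854). Further out, Dusp22 differed by 1.06 ± 0.19 (adjusted p = 0.0644) and Serpinb1a by 2.16 ± 0.47 (adjusted p = 0.0929).

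Foxq1, the remaining gene of the chromosome 13 group and a factor of epithelia and stomach, was called by its dimmer probe set only. That probe set read 2.70 and 3.00 in OP9M2 and 5.32 and 4.98 in BFC012, all below background, with a difference of -2.29 ± 0.20 (adjusted p = 0.0104). The brighter probe set read 6.42 and 6.00 in OP9M2 and 7.51 and 7.25 in BFC012. Its lines did not overlap, and its difference of -1.17 ± 0.21 missed the threshold (adjusted p = 0.0588). Without OP9M2 replicate 1 that difference was -1.38.

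The upstream sequences of the adjacent chromosome 13 genes that differed in opposite directions are shown, as 250 bases that end at the RefSeq start site in GRCm38.p6. Foxf2 (chr13:31625566-31625815, plus strand) and Foxc1 (chr13:31806396-31806645, plus strand) are both read on the strand of the gene:
Foxf2: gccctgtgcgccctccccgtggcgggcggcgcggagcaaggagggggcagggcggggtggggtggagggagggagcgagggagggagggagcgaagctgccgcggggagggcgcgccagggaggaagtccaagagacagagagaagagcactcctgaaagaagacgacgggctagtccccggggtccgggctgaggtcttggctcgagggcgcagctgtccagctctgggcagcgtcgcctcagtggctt
Foxc1: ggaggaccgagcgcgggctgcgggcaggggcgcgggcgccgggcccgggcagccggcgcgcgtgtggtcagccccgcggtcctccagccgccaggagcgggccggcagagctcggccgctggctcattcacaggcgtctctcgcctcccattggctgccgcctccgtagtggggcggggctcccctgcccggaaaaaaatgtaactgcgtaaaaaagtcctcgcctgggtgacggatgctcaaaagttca
Both stretches are rich in the dinucleotide CG. Windows of 300 bases around the start sites (250 before, 50 after) held 27 CG for Foxf2 and 32 for Foxc1, against a median of 7 over 32851 mouse windows and of 22 over the 29 windows of forkhead genes.

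The FoxA genes also differed in opposite directions. Foxa1 was at 8.36 and 8.11 in OP9M2 against 5.04 and 5.27 in BFC012, where it was below background. It was higher in OP9M2 by 3.08 ± 0.17 (adjusted p = 0.00382), or at least 4.41-fold. Foxa2 was at 6.05 and 5.32 in OP9M2 against 10.66 and 10.42 in BFC012. Here both OP9M2 arrays were below background and both BFC012 arrays were far above it. Foxa2 was at least 21.8-fold lower in OP9M2, with a difference of -4.86 ± 0.29 (adjusted p = 0.00404). Foxa3, the third member, was not above background on any array.

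Both FoxA genes are textbook factors of endoderm, so markers of hepatocytes and epithelium were read beside them. The 8 hepatocyte markers, none of them called, had list averages between 5.89 and 6.00 on the 4 arrays. Of 10 epithelial markers 2 were lower in OP9M2, Cdh1 (-4.56 ± 0.24) and Krt7 (-2.19 ± 0.23), and both were below background there. Over all genes 3.56% were lower. Epcam, above background on every array, read 10.32 and 9.20 in OP9M2 against 8.73 and 8.90 in BFC012, so its lines did not overlap, and it was not called (0.94 ± 0.40, adjusted p = 0.307). It passed as higher without OP9M2 replicate 2, where the spread came from the BFC012 arrays alone. The epithelial list averaged 5.95 and 5.83 in OP9M2 and 6.53 and 6.78 in BFC012, and Krt18, Cldn4, Esrp1 and Ocln were not above background on any array. Their part in the Foxa2 difference was not tested.

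Upstream sequences of the FoxA genes are shown because each holds a 7-letter forkhead motif, in capitals. For Foxa1 (chr12:57546234-57546263, minus strand) the 30 bases around GTAAACA are given, whose first base lies at -141 from the start. For Foxa2 (chr2:148046970-148047219, minus strand) the 250 bases before the start hold TGTTTGT at -173:
Foxa1: tatactgctttGTAAACAaagtgagggcca
Foxa2: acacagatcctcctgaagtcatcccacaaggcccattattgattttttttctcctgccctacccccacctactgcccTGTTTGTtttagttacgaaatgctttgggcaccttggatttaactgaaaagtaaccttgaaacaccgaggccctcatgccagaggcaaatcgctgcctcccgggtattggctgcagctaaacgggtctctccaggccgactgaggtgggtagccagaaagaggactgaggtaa
The search covered 4 motifs on both strands that differ only in their last bases, so that no 2 can match at the same place and strand. Of the 37 genes 24 had windows in the RefSeq table. The motif TGTTTAC, the reverse complement of the run shown for Foxa1, was found in 1 of 29 forkhead windows and in 3.65% of all windows. The motif TGTTTGT was found in 2 forkhead windows (Foxa2 and Foxp1) and in 6.61% of all. The motif TGTTTGC was found in 2 forkhead windows and in 5.07% of all, and the motif TGTTTAT in 3 forkhead windows and in 4.60% of all. Any of the 4 was present in 6 forkhead windows and in 17.7% of all windows, and a match of letters is no evidence of binding.

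Foxs1, a gene of pericytes and sensory neurons, had the third largest difference upwards but missed the threshold. It read 8.80 and 7.48 in OP9M2 and 5.85 and 5.82 in BFC012. OP9M2 was above background on both arrays and BFC012 on neither, but the OP9M2 replicates lay 1.32 apart. The difference was 2.31 ± 0.46 (adjusted p = 0.0768). Without OP9M2 replicate 1 it was 1.65, and without OP9M2 replicate 2 it was 2.97. Those fits take the spread from the BFC012 arrays alone and leave out the gap between the OP9M2 replicates.

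Foxp1 was the gene with the most probe sets. This transcriptional repressor, with roles in lymphocyte and heart development, was above background on every array in 7 of its 8 probe sets. Its brightest probe set read 11.67 and 11.91 in OP9M2 and 12.52 and 12.18 in BFC012. All 8 had negative differences, from -1.06 to -0.28, and in all 8 the lines did not overlap. None was called, with adjusted p between 0.0594 and 0.470. The brightest differed by -0.56 ± 0.19, with a 95% interval from -1.06 to -0.06.

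Foxo3, a stress-response factor held in check by Akt, had 3 probe sets with negative differences. The brightest read 9.80 and 9.22 in OP9M2 and 10.51 and 11.06 in BFC012. The lines did not overlap, and the difference was -1.27 ± 0.30 (adjusted p = 0.109). The second gave -1.32 ± 0.37 (adjusted p = 0.157). The third, close to background, gave -0.91 ± 0.13 with an adjusted p of 0.0369, below the minimum difference for a call. Without OP9M2 replicate 1 the brightest gave -1.56.

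The other FoxO genes were not called either. Foxo1 gave 0.26 ± 0.17 (95% interval -0.19 to 0.71) and Foxo4 gave 0.23 ± 0.33 (-0.66 to 1.11). All 4 Foxo1 probe sets had positive differences, from 0.13 to 0.26. Foxo4 was read differently by the OP9M2 arrays, at 8.83 and 7.92, on either side of both BFC012 arrays (8.24 and 8.06).

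Foxp4 and Foxp2, relatives of Foxp1, were not called. Foxp4, found in lung and gut, read 7.97 and 7.25 in OP9M2 and 8.57 and 8.32 in BFC012 and differed by -0.83 ± 0.28 (adjusted p = 0.223). The dimmer Foxp4 probe sets gave -1.13 ± 0.32 and -0.02 ± 0.14. Foxp2, known from vocal learning, was above background on OP9M2 replicate 2 alone, at 6.74 against 5.38 in the other OP9M2 array and 4.57 and 4.84 in BFC012. Its difference was 1.35 ± 0.48 (adjusted p = 0.235). Another Foxp2 probe set had the same OP9M2 replicate high, at 5.45 against 3.46, below background on all arrays. Without OP9M2 replicate 1 the difference was -1.19 for Foxp4 and 2.03 for Foxp2.

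**Figure D3:**
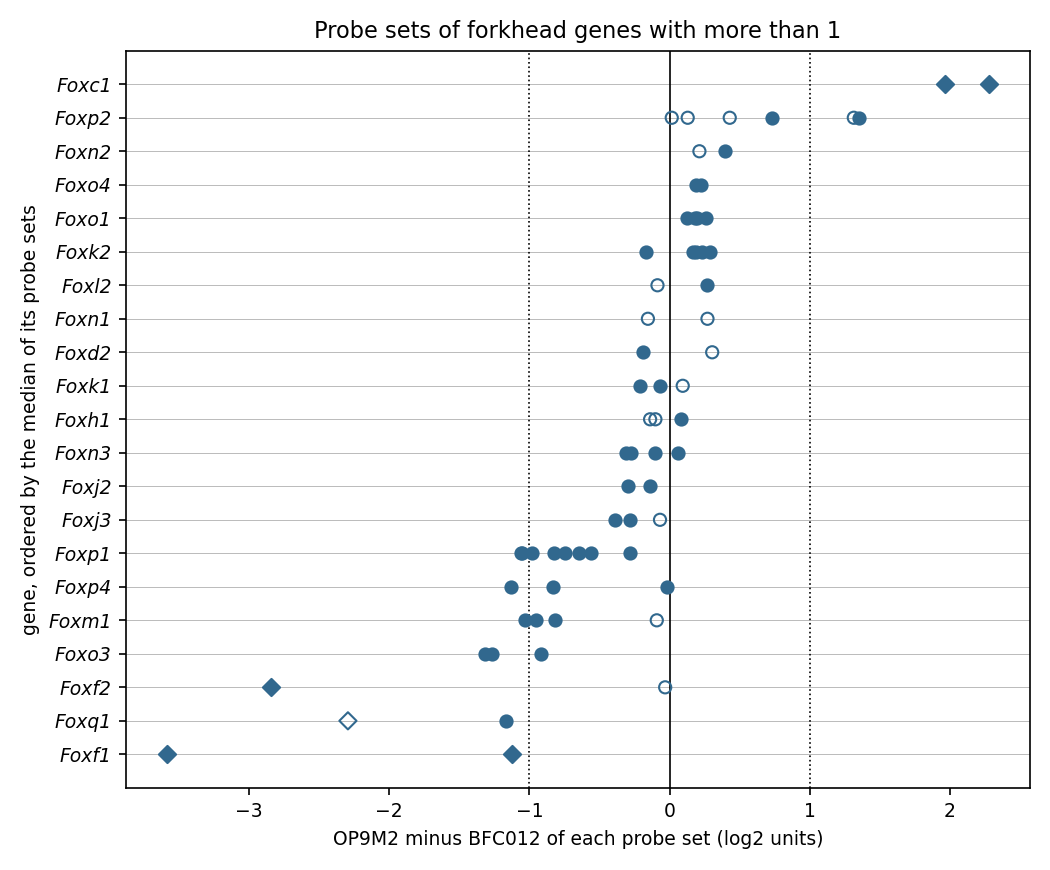
OP9M2 minus BFC012 in log2 units (x axis) of every probe set of the 21 forkhead genes with several, ordered by the gene's median. Diamonds are called probe sets, filled symbols were above background on at least 1 array and open ones on none, and dotted lines mark a difference of 1. All 8 Foxp1 symbols lie left of 0, and Foxf1, Foxf2, Foxq1, Foxp2 and Foxp4 are spread over more than 1 log2 unit.

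Neither Foxm1 nor any of its target genes was called. Foxm1 read 8.23 and 8.57 in OP9M2 and 9.50 and 8.93 in BFC012, a difference of -0.82 ± 0.26 (adjusted p = 0.191). The lines did not overlap in this or in the other 2 probe sets above background, which gave -1.03 and -0.95. None of 26 measured target genes was called by limma, and 3 had an unadjusted p under 0.05, where 23.3% of all genes did. Their median difference was -0.37, with 20 of 26 below 0.

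The targets followed OP9M2 replicate 1. Taken as the deviation from each gene's mean over the 4 arrays, their median was -0.70 on OP9M2 replicate 1 and 0.37 on OP9M2 replicate 2, and 0.30 and 0.02 on the BFC012 arrays. The kinase gene Aurka read 8.38 and 10.21 in OP9M2 and 10.19 and 10.03 in BFC012. Birc5, an inhibitor of apoptosis that is made in mitosis, read 10.95 and 12.43 in OP9M2 and 11.79 and 11.31 in BFC012. Without OP9M2 replicate 1 the median difference of the targets was 0.10 with 0 called, and without OP9M2 replicate 2 it was -0.84 with 9 called lower. Foxm1 itself was below both BFC012 arrays on both OP9M2 arrays, unlike Aurka and Birc5. Other targets behaved as Foxm1 did, among them Kif20a (-1.05 ± 0.32), Kif23 (-1.41 ± 0.43) and Bub1b (-0.62 ± 0.18). Of the 26 targets 6 had a difference above 0.

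**Figure D4:**
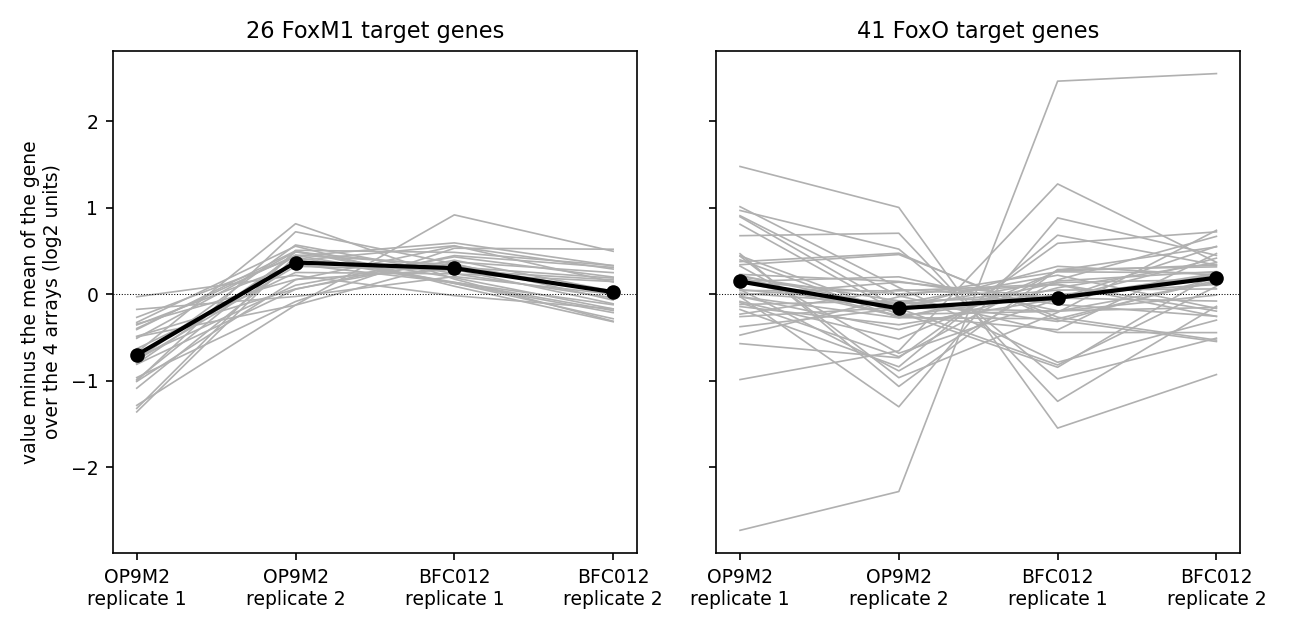
Deviation of each gene's log2 value from its mean over the 4 arrays (y axis) on each array (x axis), for 26 FoxM1 targets and 41 FoxO targets. Grey lines are genes and the black line is their median, which for FoxM1 targets was -0.70 on OP9M2 replicate 1 and between 0.02 and 0.37 on the other arrays, and for FoxO targets stayed between -0.16 and 0.19.

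The controls of FoxO proteins, from the insulin receptor to Akt and Sgk kinases and FoxO deacetylases, held no called gene among 21 measured, with limma and 5 at an unadjusted p under 0.05, where 23.3% of all genes had one. Their median difference was -0.19, and 2 were called lower with either OP9M2 array left out. Akt1 differed by -0.19 ± 0.17 and the insulin-like growth factor receptor Igf1r by -0.87 ± 0.17 (adjusted p = 0.0760). Among 41 FoxO target genes 1 was higher and 2 were lower in OP9M2, with a median difference of -0.11 and shares over all genes of 2.36% and 3.56%. With limma, 17 of the 41 had an unadjusted p under 0.05, where 23.3% of all genes did. The counts were 1 higher and 6 lower without OP9M2 replicate 1 (median -0.18), and 4 higher and 2 lower without OP9M2 replicate 2 (median 0.09). Bnip3, a mitophagy protein, was higher by 2.48 ± 0.29 (adjusted p = 0.0224). The cell cycle inhibitor Cdkn2b was at 4.87 and 5.32 in OP9M2 against 10.06 and 10.14 in BFC012, at least 16.1-fold lower (adjusted p = 0.00185). The cyclin gene Ccnd2 was lower, with a difference of -1.31 ± 0.15 (adjusted p = 0.0200). The FoxO targets that passed thus lay on both sides of 0.

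Genes known beside Foxc1 in marrow stroma included called ones in both directions. Of 19 measured, 6 were higher and 2 lower in OP9M2, against 2.36% and 3.56% of all genes, with a median difference of 2.04 against 0.03 over all genes. With limma, 13 of the 19 genes had an unadjusted p under 0.05, where 23.3% of all genes did. The median difference of the list was 1.48 without OP9M2 replicate 1 and 2.33 without OP9M2 replicate 2. Kitl, which encodes stem cell factor, was at 12.96 and 12.39 in OP9M2 against 10.52 and 10.74 in BFC012, a difference of 2.04 ± 0.24 (adjusted p = 0.0229). Among the factors Ebf1 to Ebf3, Ebf1 (4.97 ± 0.63) and Ebf3 (3.64 ± 0.31) were higher and Ebf2 (-4.46 ± 0.31) was lower. Ebf1 and Ebf3 were not above background in BFC012, so they were at least 11.7-fold and 5.64-fold higher. Ebf2 was not above background in OP9M2, so it was at least 5.51-fold lower. The OP9M2 arrays were apart in Ebf1, at 10.55 and 8.72. The fat cell factor Pparg was higher by 4.46 ± 0.23, lipoprotein lipase Lpl by 6.91 ± 0.66 and the lymphoid cytokine Il7 by 3.63 ± 0.39. Lpl read 13.88 and 12.02 in OP9M2. Il7 was not above background in BFC012, so it was at least 3.62-fold higher. The BMP antagonist Grem1 was lower (-5.35 ± 0.15), by at least 20.9-fold since OP9M2 was not above background.

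The chemokine gene Cxcl12 was not called. It read 13.34 and 12.86 in OP9M2 and 13.97 and 14.01 in BFC012, a difference of -0.89 ± 0.20 (adjusted p = 0.104). The leptin receptor gene Lepr, a marker of these marrow cells, was not above background on any array. The fat cell hormone gene Adipoq read 12.84 on OP9M2 replicate 1 and 5.41 on replicate 2, against 3.99 and 3.39 in BFC012, so the OP9M2 arrays themselves differed widely. Its part in the Foxc1 and Foxs1 values, which were highest on that same array, was not tested.

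Hedgehog genes, which lie upstream of FoxF, held 1 called gene of 17, where 5.91% of all genes were called. Their median difference was -0.06. Gli2, a transcription factor of the pathway, was at 5.79 and 5.50 in OP9M2 against 8.72 on both BFC012 arrays. It was lower in OP9M2 (-3.08 ± 0.16, adjusted p = 0.00324) and was below background in OP9M2. The ligands Shh, Ihh and Dhh were not above background on any array, and nor was Gli1, a common readout of the pathway. Ptch1, another readout, differed by -0.34 ± 0.16 (adjusted p = 0.373).

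Mesenchymal genes often found with Foxf and Foxd factors held 6 lower and 0 higher genes of 20 measured, although their median difference was -0.01. Over all genes 3.56% were lower and 2.36% higher. With limma, 10 of the 20 had an unadjusted p under 0.05, where 23.3% of all genes did. Without OP9M2 replicate 2 the list held 1 higher and 7 lower. Those lower were Tcf21 (-5.36 ± 0.40), Lhx2 (-4.35 ± 0.15), Wt1 (-3.77 ± 0.23), Gata4 (-3.44 ± 0.13), Gata6 (-2.68 ± 0.21) and Bmp4 (-2.09 ± 0.33). Tcf21, Lhx2, Wt1 and Gata4 are factors of the mesenchyme and mesothelium of internal organs, and all 4 were below background in OP9M2, as Foxf2 was. Wt1 also stands among the mesothelial markers.

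Most forkhead genes were not called. Of the genes above background on all 4 arrays 16 were not called, and 12 of these differed by less than 0.5 log2 units: Foxd2, Foxh1, Foxj2, Foxj3, Foxk1, Foxk2, Foxl2, Foxn2, Foxn3, Foxn4, Foxo1 and Foxo4. Their differences lay between -0.31 (Foxn3) and 0.40 (Foxn2). The 95% intervals of 10 of the 12 stayed within 1 log2 unit of 0, and the widest bounds were -1.33 for Foxn3 and 1.11 for Foxo4. Each gene was read by its brightest probe set. The other probe sets of Foxd2, Foxh1, Foxl2 and Foxn2 were not above background on any array. The brightest of Foxh1 was close to background, at 6.73 to 6.85. Foxk1 and Foxk2, which repress autophagy genes, and Foxj3 and Foxn2 are broadly expressed factors.

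The remaining 12 genes were not above background on any array. They were Foxa3, Foxb1, Foxb2, Foxd1, Foxd3, Foxd4, Foxe3, Foxi1, Foxj1, Foxl1, Foxn1 and Foxp3, with differences between -0.45 and 0.40. They include factors of ciliated cells (Foxj1), thymic epithelium (Foxn1), regulatory T cells (Foxp3) and neural crest (Foxd3). The share of forkhead genes above background on at least 1 array, 25 of 37, was 67.6%, and over all genes it was 67.6% as well.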

How the data were processed

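Intensities were deposited as 1 value per probe set and array of the Affymetrix mouse array, made by the authors with RMA and the affy package (versions not given in the sources used here) after amplification of the RNA with an Ambion kit. The natural logarithm of the deposited intensity had the range of RMA log2 values (2.06 to 14.9) and was read as the log2 value, since between 6.31% and 6.57% of the values of an array exceeded 65535. The base was not stated, and with log2 of the deposited intensity every difference is 1.44 times larger at the same adjusted p.

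After 64 control probe sets were left out, 45037 were fitted with lmFit and eBayes of limma 3.58.1 under R 4.3.3 (2 residual and 2.50 prior degrees of freedom, tests in both directions), with Benjamini-Hochberg adjustment over all of them. The fit was tested on simulated data with the same spread in both lines. The spread of these lines was unequal, so that test cannot vouch for the p-values. Calls needed both an adjusted p under 0.05 and a minimum difference of 1. The methods name these thresholds for clustering the study's human arrays and none for the mouse arrays. Where several probe sets name a gene alone, the brightest (by its mean over all 4 arrays) stood for the gene; 34945 probe sets named 1 gene, 932 several and 9160 none. In 34741 of the 34945 the gene was found in the RefSeq table (GRCm38.p6), which gave symbols and neighbours. The number of arrays limits the precision.

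Background was the 95th percentile of 81 receptor probe sets. A fold against a line not above background on both arrays is the brighter mean over that level, written as at least. Every forkhead gene with a called probe set was named, with those above background on any array by value or range, and of each gene list the called genes and known partners. The forkhead genes and the gene lists (FoxM1 targets, FoxO control, FoxO targets, Foxc1 and marrow niche, hedgehog, mesenchymal partners, cluster neighbours, noncoding transcripts and markers of mesenchymal stroma, blood, endothelium, epithelium, hepatocytes and mesothelium) were chosen with earlier results of these data known. Of the noncoding transcripts beside forkhead genes 2 of 9 were measured, Fendrr and Foxl2os, and neither was called by limma (1 at an unadjusted p under 0.05). Alternatives were other scalings, a filter on dim probe sets, other moderation, the mean of a gene's probe sets, no minimum difference, leaving out each array and the replicate number as a block. Deviations of OP9M2 and BFC012 replicate 1 from their lines' means correlated at -0.103 over 45037 probe sets, and the labels do not tie the numbers together. Promoter windows came from RefSeq (GRCm38.p6), and no coordinates of genes were printed otherwise.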

Additional observations from a re-analysis of the deposited data

How the results depend on the processing

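All 6 forkhead calls held their direction under every alternative. The calls of Foxa1, Foxa2, Foxc2, Foxf1 and Foxf2 were lost only where a BFC012 array was left out and, for Foxf2, where probe sets with a mean under background were not tested, which removes it. Foxc1 was also lost with median centring, without OP9M2 replicate 1 and with a replicate block. Over the 4 fits without 1 array, the forkhead probe sets called higher ranged from 0 to 7 and those called lower from 0 to 9, and the forkhead genes called higher from 0 to 4 and lower from 0 to 6. Without a BFC012 array the spread within lines came from the OP9M2 arrays alone. Those had 2842 probe sets at least 1 log2 unit apart, against 291 for the BFC012 arrays. The part of this spread in the lack of calls was not tested. With the dim filter 3 forkhead probe sets were called lower, because 2 of the 5 were not tested. Of all probe sets tested under that filter 7.43% were called, against 4.46% in the main fit. With the replicate number as a block, 2 probe sets were called higher and 3 lower, and over all probe sets 245 were higher and 462 lower instead of 810 and 1198. Under that block the niche genes held 2 higher and 2 lower instead of 6 and 2, the FoxO targets 0 higher and 1 lower instead of 1 and 2, the mesenchymal partners 4 lower instead of 6, the epithelial markers 1 lower instead of 2, and Eng was not called. The pairing crossed (chosen after seeing the data) left 4 forkhead probe sets higher and 4 lower, where 3.06% of all probe sets were called. Without OP9M2 replicate 1, Foxo3, Foxp2, Foxp4, Foxq1 and Foxs1 were gained and Foxc1 was lost, and without OP9M2 replicate 2, Foxs1 was gained. Those gains rest on the spread of the BFC012 arrays alone. The mean of a gene's probe sets added Foxq1 (-1.73, adjusted p = 0.00898) and reduced Foxf1 to -2.35 and Foxf2 to -1.44.

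Small differences of genes that were not called changed sign. With the mean of the probe sets Foxd2 gave 0.058 and Foxh1 -0.053, and with quantile normalization Foxk1 gave 0.0091 and Foxn4 0.022. Without 1 array, the lowest and highest differences were -0.63 and 0.046 for Foxj2, -0.28 and 0.15 for Foxk1, -0.84 and 0.21 for Foxn3, -0.058 and 0.051 for Foxn4, and -0.23 and 0.68 for Foxo4. The arrays give no read depth, and 12 of the 37 genes could not be compared because no array was above background.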
